A study of Mus musculus with 2 samples.

Results

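Retnlg-positive granulocytes were the barcodes that carried much S100a8 and S100a9 and at least 1 unique molecular identifier (UMI) of Retnlg, in single-cell RNA sequencing of live CD45+ cells sorted from B16 tumours. A barcode stands for 1 droplet, mostly 1 cell, and a UMI for 1 captured RNA molecule. Members had 200 or more detected genes and at most 10% mitochondrial UMIs, 200 or more UMIs of S100a8 plus S100a9 per 10000, at least 1 Retnlg UMI, at most 5 UMIs per 10000 of the complement genes C1qa, C1qb and C1qc, and 0 UMIs of the T cell receptor genes Cd3d, Cd3e and Cd3g. Of the 14341 deposited barcodes, 13818 passed the filter on genes and mitochondrial UMIs and 382 were members. Members were thus selected on their measured counts of these genes, whose levels are given as a description without a test. The gate without the Retnlg condition held another 173 barcodes with no Retnlg UMI, and these Retnlg-negative barcodes served as the comparison within each library.

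Neutrophils are short-lived granulocytes that leave the bone marrow with ready-made granules and enter tumours from the blood. S100a8 and S100a9 encode the subunits of calprotectin, a calcium-binding and metal-binding protein that fills much of their cytosol. Retnlg encodes a resistin-like secreted protein made by mouse neutrophils, Mmp9 encodes gelatinase B, stored in their gelatinase granules, and Cxcr2 encodes their receptor for ELR+ CXC chemokines such as Cxcl1 and Cxcl2.

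B16 cells are a melanoma line of C57BL/6 origin. The WT library came from Mettl3 fl/fl Lyz2+/+ mice, which carry the floxed Mettl3 alleles and no Cre, and the KO library from Mettl3 fl/fl Lyz2cre/+ mice, in which Cre is expressed from 1 Lyz2 allele, a gene of macrophages, monocytes and neutrophils. All mice were C57BL/6 and 8 weeks old, and the CD45+ cells of several mice were pooled into 1 library per genotype. Mettl3 encodes the catalytic subunit of the N6-methyladenosine (m6A) methyltransferase, which marks RNA. With 1 library per genotype there was no spread between mice to measure, so no test between genotypes was run. Values carry 95% intervals (exact Poisson for UMI sums and Clopper-Pearson for shares) that reflect counting error alone, and a difference beyond them is a difference between these 2 libraries.

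The library labelled WT held 45963969 UMIs and the library labelled KO 54052317. Mettl3 had 3 UMIs in the members labelled WT and 4 in those labelled KO, which is too few to check the genotype, and a 3' tag does not show whether an internal exon was removed. Between the libraries, 13 barcode sequences were shared, of which 0 lay in the gate.

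The library labelled WT held 258 members among 5661 filtered barcodes and the library labelled KO 124 among 8157. The share was 4.56% (4.03 to 5.13) in WT and 1.52% (1.27 to 1.81) in KO, a log2 ratio KO over WT of -1.58 (-1.89 to -1.28). The members thus took a smaller share of the CD45+ barcodes labelled KO than of those labelled WT. The Retnlg-negative barcodes of the gate had a like ratio, 2.08% (1.73 to 2.49) against 0.674% (0.508 to 0.877), log2 -1.63 (-2.09 to -1.17). Members therefore made up nearly equal parts of the gate, 68.6% (63.7 to 73.3) in WT and 69.3% (62.0 to 75.9) in KO, and the log2 ratio of these parts was 0.01 (-0.16 to 0.19). A share of barcodes moves with every other cell type in the sort, and a lower share of these cells cannot be told apart from a higher share of the others.

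Each member was a small library. The median member held 1562 UMIs and 617 genes in WT and 1167 UMIs and 520 genes in KO, while the filtered barcodes outside the gate had median UMI counts of 4719 and 3807. S100a8 and S100a9 together took 14.7% of all member UMIs in WT and 13.7% in KO, against 10.3% and 7.17% in the Retnlg-negative barcodes and 0.188% and 0.0572% outside the gate. In the median member they reached 1787 UMIs per 10000 in WT and 1800 in KO. The members differed widely among themselves in Retnlg, whose level ran from 1.27 to 559.6 UMIs per 10000 in WT with a median of 38.5, and from 0.794 to 307.2 in KO with a median of 44.1. Exactly 1 Retnlg UMI was seen in 49 and 20 members, and 10 or more in 103 and 42.

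Near the limits of the rule, the lowest members had 202.3 UMIs of S100a8 plus S100a9 per 10000 in both libraries, and the highest barcodes kept out by this limit alone had 190.9 in WT and 160.1 in KO. Few barcodes lay close to it, 6 members of WT and 4 of KO between 200 and 250 per 10000, and 5 and 2 non-members between 150 and 200. The C1q limit lay inside a continuous range: the highest member had 4.95 and 4.71 C1q UMIs per 10000, and the lowest Retnlg-positive barcode kept out by it had 5.15 and 5.04. The Retnlg limit depends on depth. At the median depth of the Retnlg-negative barcodes, a count of 0 allows up to 25.4 Retnlg UMIs per 10000 in WT and 33.7 in KO, and 97 and 51 members had no more than that. The Retnlg-negative barcodes were shallower, with medians of 1182 UMIs in WT and 891 in KO, so a cell whose Retnlg was missed cannot be told apart from a cell without it.

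**Figure D1:**
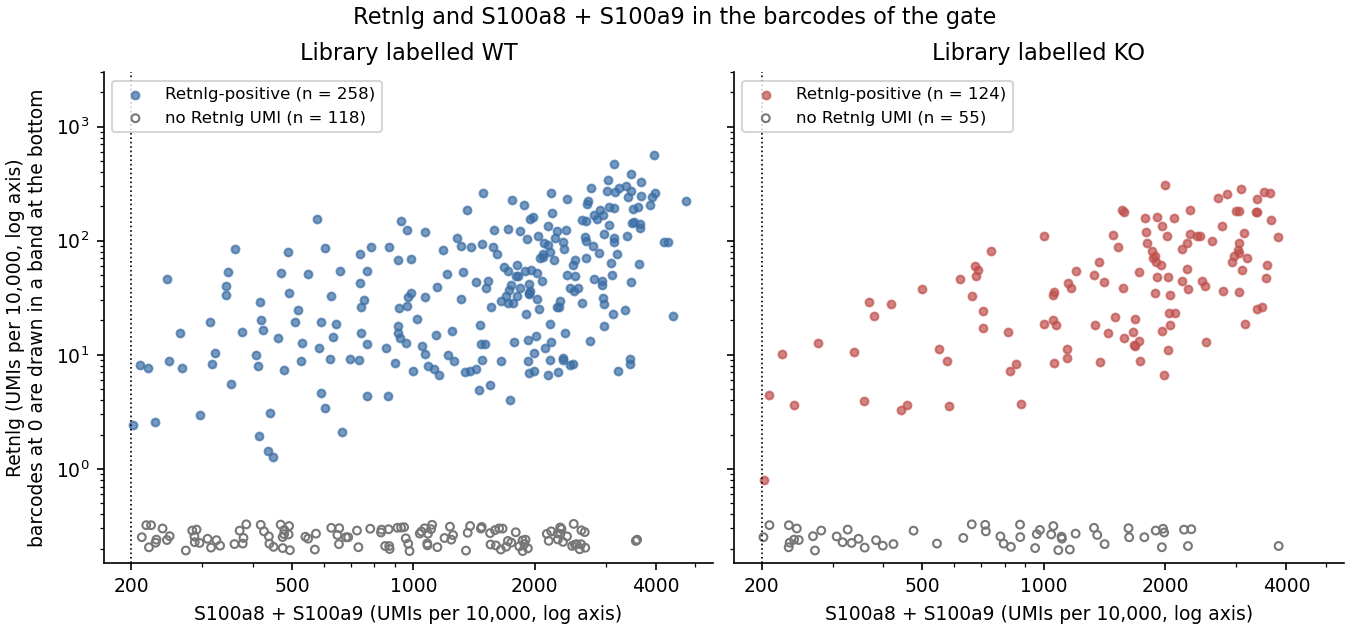
Each point is 1 barcode of the gate, plotted by its UMIs of S100a8 plus S100a9 per 10000 (x axis, log scale) and its Retnlg UMIs per 10000 (y axis, log scale), for the libraries labelled WT and KO; barcodes with no Retnlg UMI are drawn in a band at the bottom, and the dotted line marks the limit of 200. The members spread over a wide range of Retnlg, up to 559.6 per 10000 in WT and 307.2 in KO, and the Retnlg-negative barcodes lie over much of the same S100a8 plus S100a9 range with a lower median (953.6 and 795.5 against 1787 and 1800).

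The defining genes were read against the free RNA that reaches every droplet. Barcodes with 2 or more Cd3 UMIs, which should lack neutrophil genes, numbered 909 in WT and 1052 in KO with median depths of 5031 and 4215 UMIs. A Retnlg UMI was found in 2.86% (1.88 to 4.16) of them in WT and in 0.475% (0.154 to 1.11) in KO. With every barcode thinned to 500 UMIs these shares were 0.330% and 0.190%, whereas Retnlg was seen in 53.2% (48.0 to 58.3) and 57.5% (49.9 to 64.9) of the gate barcodes, which were chosen without regard to Retnlg. Among the members, each of which has a Retnlg UMI by the rule, 77.5% and 83.1% still showed it after thinning.

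Other neutrophil genes were frequent in the members and rare in the Cd3 barcodes, and the Retnlg-negative barcodes carried them as well. Mmp9 was detected in 67.1% (61.0 to 72.8) of the members labelled WT and 71.8% (63.0 to 79.5) of those labelled KO, and in 2.64% and 1.71% of the Cd3 barcodes. Cxcr2 was detected in 69.0% (63.0 to 74.6) and 58.9% (49.7 to 67.6), against 2.75% and 0.951% of the Cd3 barcodes. Csf3r, the receptor for the neutrophil growth factor G-CSF, was detected in 88.4% (83.8 to 92.0) and 95.2% (89.8 to 98.2), against 14.3% and 13.02% of the Cd3 barcodes. In UMIs per 1000000 UMIs of the group (CPM), Mmp9 stood at 1000.3 and 992.6 in the members and at 1000 and 768.5 in the Retnlg-negative barcodes, and Cxcr2 at 784.8 and 679.6 against 804.5 and 781.1. Neither gene passed the test between the Retnlg states (edgeR quasi-likelihood test with Benjamini-Hochberg adjustment, adjusted p = 0.55 for Mmp9 and 0.91 for Cxcr2). The azurophil granule genes Mpo, Elane and Ctsg, made early in neutrophil maturation, had 0 UMIs in the members of both libraries, whereas the specific granule genes Camp and Ltf, made later, had 109 and 35 UMIs in KO, each in 2 barcodes, and 0 in WT.

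Markers of most other cell types were close to 0 in the members. Genes that the rule itself uses are left out of the lists that follow. The 6 remaining T cell genes had 8 UMIs in all members labelled WT and 0 in KO, the 6 natural killer genes 1 and 1, the 6 B and plasma cell genes 17 and 0, the 8 mast cell and basophil genes 7 and 0, and the 6 eosinophil genes 14 and 1, with Epx, the eosinophil peroxidase, at 0. The 6 melanoma genes stood at 101.3 and 127.7 CPM in the members, against 2147 and 2559 outside the gate. The 5 platelet genes, mostly Pf4, stood at 771.9 CPM in the members labelled WT, of which 22.9% held a UMI of them, and at 78.3 in KO, where 8.87% did, against 1379 and 1022 outside the gate. The genes of other myeloid cells were higher. The summed level was 1108 CPM in WT and 535.4 in KO for 6 macrophage genes other than C1q, 2190.4 and 2932 for 8 monocyte genes, and 4667 and 3983 for 11 dendritic cell genes, against 893.9 and 1852 (macrophage), 2028 and 2595 (monocyte) and 2827 and 2419 (dendritic) in the Retnlg-negative barcodes. Outside the gate the same lists stood at 3685 and 2693 (macrophage), 2188 and 3141 (monocyte) and 9116 and 9071 CPM (dendritic), so the monocyte level of the members was close to that of the other barcodes. The limit on C1q keeps out barcodes rich in macrophage RNA, so the low macrophage level of the gate follows in part from the rule. These UMIs were concentrated in few barcodes. Those with 100 or more UMIs per 10000 of the 3 lists with C1q included, called mixed barcodes here, were 25 of the 258 members labelled WT and 15 of the 124 labelled KO. With medians of 7232 and 5710 UMIs, against 1451 and 1105 in the other members, they held 36.7% and 38.9% of all member UMIs. Among the Retnlg-negative barcodes, 7 and 5 were mixed and held 22.4% and 33.2% of the UMIs. Leaving them out was an alternative added after the data had been seen, and the text names results that it changed.

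Which genes went with Retnlg was asked within each library, by comparing the summed UMIs of the members with those of the Retnlg-negative barcodes. The 4 sums (2 libraries, 2 states) were fitted with edgeR's quasi-likelihood test with the library as a term, which leaves 1 residual degree of freedom. Of 2905 genes tested, 40 were higher in the members (1.38%) and 80 were lower (2.75%) at a Benjamini-Hochberg adjusted p of at most 0.05. All 120 had the same direction in both libraries, which is no separate evidence, since the test measures the agreement of these 2 libraries. Which genes cross the threshold rested strongly on the processing: over 12 alternatives the number of genes past it ran from 1 to 284, and 5 alternatives gave fewer than 20. With RLE in place of TMM scaling 0 genes were higher and 3 lower (511 at an unadjusted p of at most 0.05, against 560 in the fit reported), and with DESeq2 0 were higher and 4 lower (98 at an unadjusted p of at most 0.05).

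The genes that were lower in the Retnlg-positive barcodes included 5 of 11 tested chemokine genes, 3 that attract neutrophils and 2 of the inflammatory CC group. Another 2, Ccl7 and Ccl12, were higher, and the median difference of the 11 was -0.49 in WT and -0.89 in KO on the log2 scale. Cxcl1 had 3 UMIs in the 258 members labelled WT and 21 in the 118 Retnlg-negative barcodes, and 0 against 5 UMIs in KO (log2 -4.67 ± 0.55, SE of the fit, edgeR adjusted p = 2.7e-04). Cxcl2 stood at 10609 CPM in the members labelled WT and 19939 in the Retnlg-negative barcodes, and at 3266 against 12333 in KO (log2 -1.35 ± 0.17, edgeR adjusted p = 4.2e-04). Cxcl3 stood at 780.0 against 1788 CPM in WT and 181.2 against 1575 in KO (log2 -1.90 ± 0.30, edgeR adjusted p = 0.0023). All 3 genes encode ligands of Cxcr2, and each was lower on the Retnlg-positive side in both libraries. Ccl3 and Ccl4, which encode the ligands MIP-1 alpha and MIP-1 beta and lie close together on chromosome 11 (chr11:83647844-83649355, minus strand, and chr11:83662584-83664683, plus strand, GRCm38), showed the same direction. Ccl3 stood at 1679 against 4626 CPM in WT and 626.0 against 3679 in KO (log2 -1.90 ± 0.20, edgeR adjusted p = 1.8e-04). Ccl4 stood at 1724 against 5972 CPM in WT and 1223 against 2633 in KO (log2 -1.42 ± 0.16, edgeR adjusted p = 2.7e-04). Ccl3, Ccl4, Cxcl2 and the gene of the matrix protein osteopontin, Spp1, were the 4 genes that DESeq2 also called. Without the mixed barcodes all 5 chemokine genes kept their direction and their call.

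The 3 Cxcr2 ligand genes lie in 1 cluster on chromosome 5, and the 250 bases before their annotated starts are shown because each carries at least 1 run of the NF-kB type. Capitals mark matches, on either strand, to GGG, then any 2 bases, then TTTCC. The sequences are from RefSeq (GRCm38.p6, plus strand) at chr5:90890995-90891244 for Cxcl1, chr5:90903649-90903898 for Cxcl2 and chr5:90785851-90786100 for Cxcl3.
Cxcl1: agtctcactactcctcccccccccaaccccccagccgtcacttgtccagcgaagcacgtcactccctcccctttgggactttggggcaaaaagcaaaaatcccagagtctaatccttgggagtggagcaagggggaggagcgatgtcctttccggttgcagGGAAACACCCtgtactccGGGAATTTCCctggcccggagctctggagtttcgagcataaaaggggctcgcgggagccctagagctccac
Cxcl2: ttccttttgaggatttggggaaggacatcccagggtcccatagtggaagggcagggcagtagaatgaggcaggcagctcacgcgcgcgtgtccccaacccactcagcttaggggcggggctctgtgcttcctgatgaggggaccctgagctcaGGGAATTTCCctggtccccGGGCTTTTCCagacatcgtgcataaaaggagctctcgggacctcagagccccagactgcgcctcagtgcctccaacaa
Cxcl3: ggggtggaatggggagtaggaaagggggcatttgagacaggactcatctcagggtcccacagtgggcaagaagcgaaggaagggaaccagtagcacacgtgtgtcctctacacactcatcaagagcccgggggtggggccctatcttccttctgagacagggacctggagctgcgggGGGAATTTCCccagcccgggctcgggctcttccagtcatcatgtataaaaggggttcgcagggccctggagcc
Cxcl1 and Cxcl2 each held 2 matches, at 62 to 89 and 69 to 97 bases before the start, and Cxcl3 held 1, at 64 to 73 bases. Such a match was present in 1.40% of all 27025 promoters of this length, in 2.02% of the 2322 matched promoters of tested genes, in 6 of the 66 matched promoters of the lower genes (9.09%) and in 1 of the 29 of the higher genes (3.45%). The 6 include Cxcl1, Cxcl2 and Cxcl3 themselves, which lie in 1 cluster and are shown because they carry a match. The share of the lower genes thus rests in part on these genes and was not tested. The promoter of Retnlg itself (chr16:48872358-48872607, plus strand), shown because Retnlg defines the members, held no such run. It held 1 match to the C/EBP-type motif TTGCNNAA on the minus strand, marked in capitals, which was present in 9.55% of all promoters.
Retnlg: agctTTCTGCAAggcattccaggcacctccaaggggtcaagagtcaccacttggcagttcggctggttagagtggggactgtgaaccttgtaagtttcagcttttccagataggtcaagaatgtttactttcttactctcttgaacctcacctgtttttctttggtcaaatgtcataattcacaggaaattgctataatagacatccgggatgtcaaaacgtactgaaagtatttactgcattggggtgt
These matches describe letters in the sequence and do not show that a factor was bound.

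Genes of the interleukin-1 family and of tumour neutrophils were among the lower ones as well. Of 9 tested genes of the interleukin-1 family 3 passed the test, all lower: Il1a, an alarmin cytokine (log2 -1.70 ± 0.39), Il1rn, the receptor antagonist (-1.15 ± 0.16), and Nlrp3, an inflammasome sensor (-1.05 ± 0.22). Il1rn stood at 860.4 against 1933 CPM in WT and 605.4 against 1449 in KO. Il1b, which encodes the main secreted cytokine of the family, stood at 4101 against 4810 CPM in WT and 4226 against 4686 in KO and did not pass (log2 -0.14 ± 0.12). The family's median difference was -0.39 in WT and -0.50 in KO, beside 0.00 and -0.01 over all tested genes. Of 15 tested genes of the tumour neutrophil list 6 were lower and 0 higher, and 12 had a negative sign in both libraries, beside 948 of all 2905 tested genes. The 6 were Spp1 (log2 -1.40 ± 0.17), the cytokine gene Tnf (-1.22 ± 0.27), Cd274, which encodes PD-L1 (-1.08 ± 0.25), the NF-kB inhibitor gene Nfkbia (-0.95 ± 0.17), and the stress-response genes Gadd45b (-0.81 ± 0.16) and Egr1 (-0.70 ± 0.18). Nfkbia, Gadd45b and Egr1 kept their sign but lost the call without the mixed barcodes.

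Of 21 tested hypoxia and glycolysis genes, 7 were lower, 0 were higher, and 18 had a negative sign in both libraries, with a median of -0.37 in WT and -0.95 in KO. The 7 were Egln3, an oxygen-sensing prolyl hydroxylase (log2 -1.49 ± 0.27), Ero1l, an oxidase of the endoplasmic reticulum (-1.21 ± 0.22), Hilpda, a lipid-droplet protein gene induced by hypoxia (-1.11 ± 0.22), Bnip3, a mitophagy receptor (-1.0 ± 0.24), Hk2, a hexokinase (-0.92 ± 0.21), Mif, a cytokine gene (-0.86 ± 0.18), and Ldha, lactate dehydrogenase A (-0.71 ± 0.18). Egln3 stood at 143.1 against 324.0 CPM in WT and 103.0 against 466.1 in KO. Without the mixed barcodes all 7 still passed. Fth1, the ferritin heavy chain, was among the genes with the most UMIs and was lower too, at 19162 against 31387 CPM in WT and 11981 against 28698 in KO (log2 -0.93 ± 0.12).

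Further lower genes came from several lists, and over all 2905 tested genes 2.75% were lower and 1.38% higher. Of 17 tested transcription factor genes 3 were lower: Maff (log2 -1.69 ± 0.35), Bhlhe40 (-1.17 ± 0.23) and Cebpb (-0.61 ± 0.14), of which Cebpb lost its call without the mixed barcodes. Of 23 tested interferon-response genes 2 were lower, Slfn4 (-1.01 ± 0.16) and Gbp2 (-0.85 ± 0.21). In both libraries 13 were negative and 6 positive, beside 948 and 940 of all 2905 tested genes. Ptgs2, which encodes the prostaglandin synthase COX-2, was lower (-1.18 ± 0.19), as was Ccrl2, an atypical receptor that binds chemerin (-1.14 ± 0.23, call lost without the mixed barcodes). Gm5483 of the stefin cluster of cysteine protease inhibitors was lower (-1.11 ± 0.16), but the genes of this cluster are near-identical copies whose reads may be split among them. Of 6 tested genes of the m6A list, Alkbh5, an m6A eraser, was lower (-1.27 ± 0.27), at 101.3 against 268.2 CPM in WT and 111.2 against 252.0 in KO, a call that was lost without the mixed barcodes. Of 16 tested adhesion and recognition genes 0 passed the test, which at the shares over all tested genes is not a result about a list of this size. Of 20 genes known to respond to tissue dissociation, Ier3 (-0.77 ± 0.16) and Egr1 were lower, both calls being lost without the mixed barcodes (Ier3 -0.61), and the heat shock gene Hspa1a was higher (1.04 ± 0.27, but -0.43 after thinning), so the stress genes gave no common direction.

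Granule and secretory-vesicle genes were among those higher in the Retnlg-positive barcodes. Of 11 tested gelatinase and secretory genes 4 were higher and 0 lower, and the median difference was 0.38 in WT and 0.41 in KO. Wfdc21, a small secreted protein of the whey acidic protein family (chr11:83746940-83752642, plus strand, GRCm38), stood at 2395 against 1240.3 CPM in WT and 1722 against 491.3 in KO (log2 1.35 ± 0.19, edgeR adjusted p = 0.0010). It was the only gene past the threshold when every barcode was thinned to 500 UMIs. Padi4 encodes the enzyme that citrullinates histones when neutrophils release their chromatin. It had 40 and 25 UMIs in the members against 2 and 0 in the Retnlg-negative barcodes (log2 3.28 ± 0.73, edgeR adjusted p = 0.020). The others were Anxa1, a gene of the anti-inflammatory protein annexin A1 (1.35 ± 0.26), and Pglyrp1, a peptidoglycan-binding granule protein (1.20 ± 0.23). Of 4 tested genes of the specific granules, Mmp8, neutrophil collagenase, was higher (1.17 ± 0.30, with 0.74 in WT and 1.90 in KO). The median of these 4 was -0.02 in WT and 0.09 in KO, with 1 positive and 1 negative in both libraries. Lcn2, the lipocalin 2 gene, stood lower in the members, at 1714 against 2145 CPM in WT and 630.1 against 1550 in KO. The differences of Wfdc21, Padi4, Anxa1, Pglyrp1 and Mmp8 were larger without the mixed barcodes, where Wfdc21 reached 1.69, and all 5 calls remained.

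Of 18 tested genes of blood-type neutrophils 3 were higher and 0 lower: S100a6 (log2 0.67 ± 0.11), S100a11 (0.52 ± 0.13) and Msrb1, a methionine sulfoxide reductase (0.57 ± 0.15). S100a6 stood at 10241 against 6442 CPM in WT and 10498 against 7067 in KO. The median of this list was 0.11 in WT and 0.29 in KO, and its median in the fit was 0.12 with and 0.43 without the mixed barcodes. Rac2, a GTPase of the NADPH oxidase, was higher (0.86 ± 0.21), as were Taldo1 (1.04 ± 0.24) and Tkt (1.12 ± 0.28), both enzymes of the pentose phosphate pathway, Rasgrp2, an activator of Rap1 (2.18 ± 0.53), Adam19, a membrane metalloprotease (2.19 ± 0.51), Mgst1, a glutathione transferase (2.09 ± 0.55, with 2.48 in WT and 0.59 in KO), and Pi16 (1.90 ± 0.48). Adam19 had 71 and 20 UMIs against 4 and 2, and Rasgrp2 54 and 33 against 5 and 1, so both rest on small counts, as does Mgst1 with 83 and 19 against 3 and 4. Each of these 7 calls remained without the mixed barcodes. Taldo1 and Tkt lie outside the lists and were chosen after their values were seen.

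Higher genes also included genes of monocytes and dendritic cells. The monocyte chemoattractant genes Ccl7 (log2 1.69 ± 0.28) and Ccl12 (2.03 ± 0.41, with 1.14 in WT and 3.54 in KO), the MHC class II genes H2-Ab1 (1.06 ± 0.21) and Cd74 (0.67 ± 0.15), and the monocyte gene Ly6c2 (1.19 ± 0.29) passed the test. After thinning to 500 UMIs, Ccl7 (-0.90), H2-Ab1 (-0.12) and Cd74 (-0.26) changed sign, and Ly6c2 stood at 0.10. Without the mixed barcodes the differences were 0.20 for Ccl7, 1.07 for Ccl12, 0.06 for H2-Ab1, -0.086 for Cd74 and 0.48 for Ly6c2, and none of the 5 passed. H2-Ab1, Cd74 and Ly6c2 are among the genes that define the mixed barcodes, so leaving these out cuts their levels by design on both sides of the contrast. Their lost calls therefore cannot be read further. In WT, 1 barcode held 53.7% of the member UMIs of Ccl7.

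**Figure D2:**
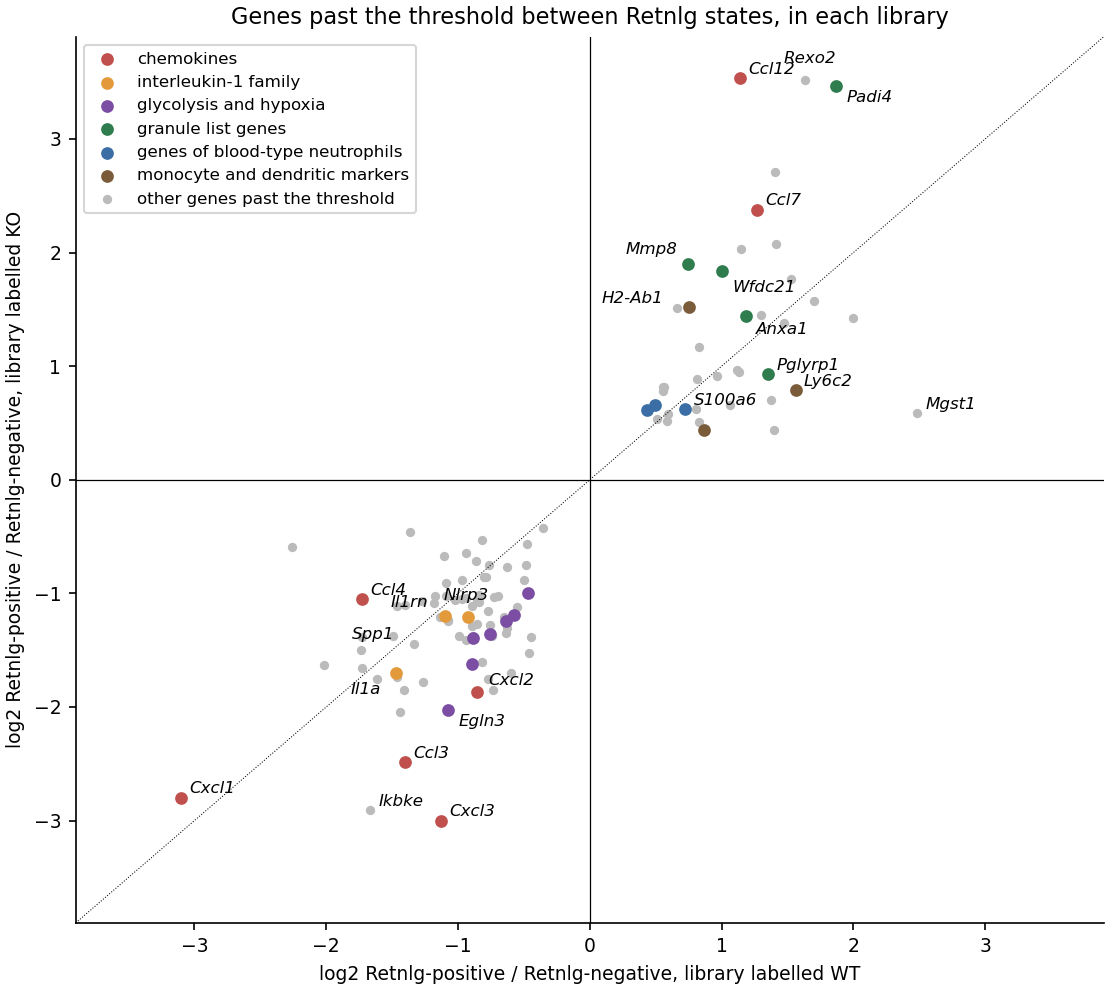
Each point is 1 of the 120 genes past the threshold of the edgeR test, plotted by its log2 ratio of Retnlg-positive over Retnlg-negative CPM in the library labelled WT (x axis) and in the library labelled KO (y axis), with colours for the gene lists and a dotted line where both ratios are equal. The CPM were TMM-scaled, and 10 was added to each before the ratio was taken. Both ratios have the same sign at every point, Cxcl1 lies farthest to the left (-3.10 in WT, -2.80 in KO), and Padi4 and Rexo2 lie among the highest (1.87 and 1.63 in WT, 3.47 and 3.52 in KO). In KO, Cxcl1 had no UMI in the members and Padi4 none in the Retnlg-negative barcodes, so their KO values depend on the added 10 CPM.

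The level of Retnlg among the members was followed by several of the same genes. The members of both libraries were divided into members with low Retnlg (up to 20.1 per 10000 in WT and 20.3 in KO), middle Retnlg, and high Retnlg (from 75.8 in WT and 73.2 in KO), with 90, 82 and 86 members in WT and 38, 45 and 41 in KO. This division and its genes were chosen after the data had been seen, and the values are a description without a test. Mmp9 stood at 469.0, 995.3 and 1886 CPM from low to high in WT and at 498.7, 1061 and 1927 in KO. Mmp9 was thus highest at high Retnlg in both libraries, while its level over all members did not pass the test between the Retnlg states. Pglyrp1 stood at 229.1, 547.4 and 1344 CPM in WT and at 169.4, 807.1 and 1104 in KO. Wfdc21 stood at 1025, 2206 and 4870 CPM in WT and at 517.6, 2295 and 3293 in KO. S100a6 stood at 6988, 9278 and 16682 CPM in WT and at 8836, 9812 and 15238 in KO. Each of the 4 genes was highest in the members with high Retnlg in both libraries. In the Retnlg-negative barcodes Mmp9 stood at 1000 CPM in WT and 768.5 in KO, above its low level in both libraries. Wfdc21 stood there at 1240.3 in WT, above its low level, and at 491.3 in KO, below it. Without the mixed barcodes S100a6 in KO stood at 12131, 11311 and 15238 CPM, so it did not rise at each step.

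Cxcl2, Il1rn and Fth1 were lowest where Retnlg was high. Cxcl2 stood at 13711, 8886 and 7347 CPM in WT and at 4733, 2352 and 1727 in KO. Il1rn stood at 1018, 763.0 and 705.1 CPM in WT, and at 649.3, 703.4 and 341.3 in KO, where the middle level was above the low one. Without the mixed barcodes Il1rn in KO stood at 1239, 724.4 and 341.3 CPM, with the middle level below the low one. Fth1 stood at 22172, 19170.1 and 14163 CPM in WT and at 13033, 13006 and 7950.2 in KO. Inflammatory genes did not share 1 order, since Il1b stood at 3687, 3821 and 5093 CPM in WT and at 2710.1, 3632 and 8492 in KO, highest where Retnlg was high, although in WT it stood at 6209, 5949 and 5153 without the mixed barcodes. Nlrp3 in KO (197.6, 115.3 and 301.1 CPM) and Spp1 in WT (523.6, 436.8 and 849.8) were also highest at the high level, and Ccl4 in KO at the middle one (611.7, 2295 and 662.5). Mixed barcodes numbered 17, 7 and 1 in WT and 10, 5 and 0 in KO from low to high Retnlg, so they moved with the division. Without them Mmp9 stood at 720.7, 1480.3 and 1855 CPM in WT and at 1081, 1235 and 1927 in KO, and Cxcl2 at 22232, 14026 and 7425 in WT and at 5090, 3342 and 1727 in KO. The order of both genes over the 3 levels was the same without them, but the sizes of the steps changed.

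**Figure D3:**
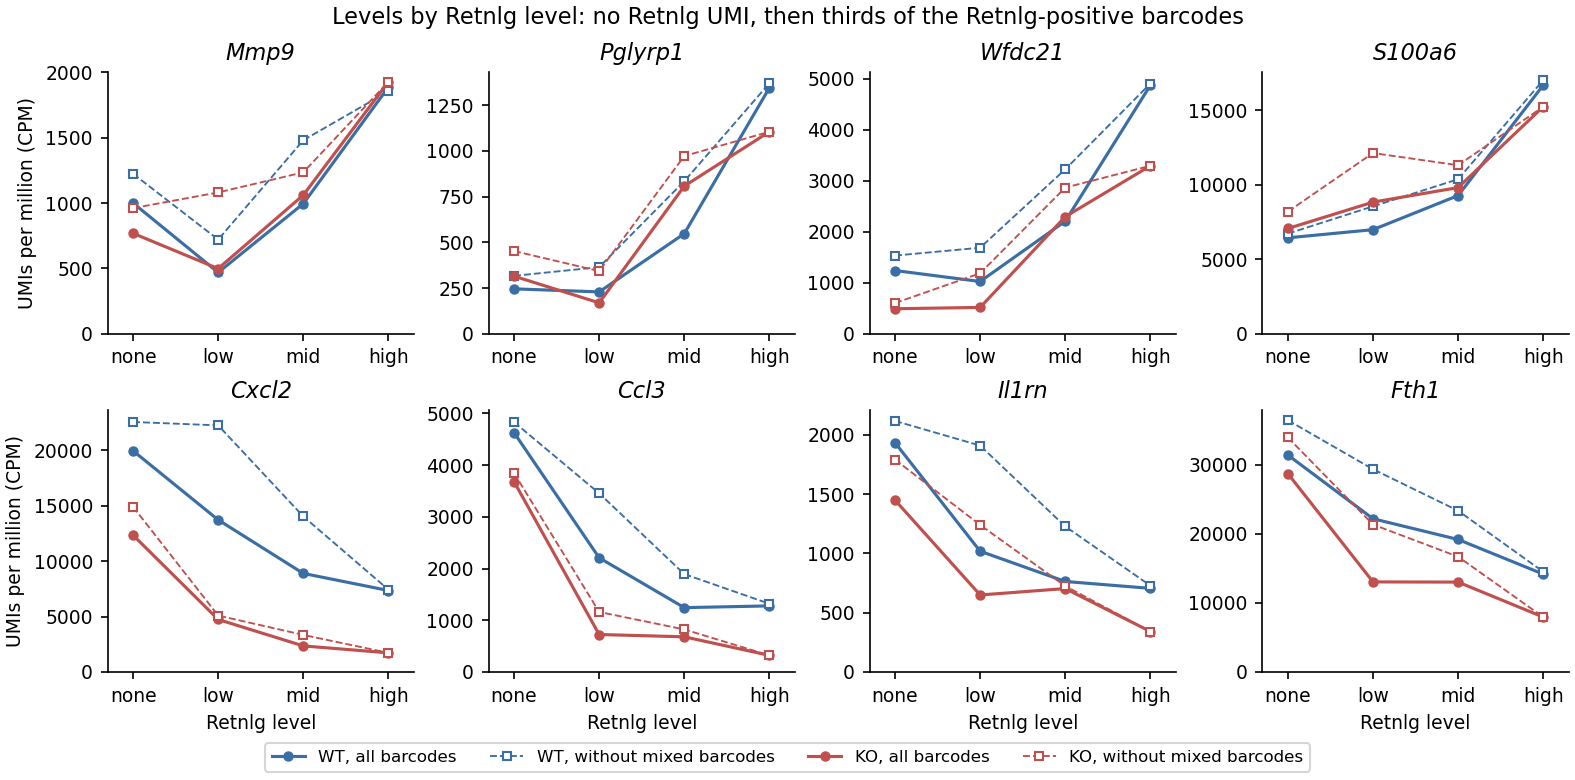
Each panel shows 1 gene in CPM (y axis) in the barcodes without Retnlg and in the members with low, middle and high Retnlg (x axis), for the libraries labelled WT (blue) and KO (red), with all barcodes (filled circles, solid lines) and without mixed barcodes (open squares, dashed lines). Mmp9, Pglyrp1, Wfdc21 and S100a6 are highest at high Retnlg, where Mmp9 reaches 1886 in WT and 1927 in KO, and Cxcl2, Ccl3, Il1rn and Fth1 are highest where Retnlg is absent.

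The 2 libraries were then compared within the members. Of the 2796 genes that reached 50 CPM in at least 1 library, 56 (2%) were past 2-fold higher in the members labelled KO and 54 (1.93%) past 2-fold lower, on the log2(CPM + 10) scale. The interval of 107 of these 110 ratios, without the pseudocount, did not include 0. This is no separate evidence, since the genes were picked by their ratio in the same counts. The median of all 2796 log2 ratios was 0.11, and with TMM scaling in place of the total the split was 29 higher and 95 lower. All 110 kept their sign without the mixed barcodes, of which 77 were still past 2-fold. These ratios describe 2 libraries and have no replicate check.

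The genes that define the members were close between the libraries. S100a8 stood at 75677 CPM (74995 to 76364) in WT and 72181 (71116 to 73258) in KO, and Retnlg at 6243 (6048 to 6443) and 5029 (4751 to 5319). The log2 ratio was -0.07 for S100a8, -0.12 for S100a9 and -0.31 for Retnlg. For Mmp9 it was -0.01 (-0.23 to 0.21) and for Cxcr2 -0.21 (-0.47 to 0.05), without a pseudocount, so neither ratio was distinguishable from 0 at this depth. Csf3r was higher in KO at 1870 against 1489 CPM (log2 0.33, 0.16 to 0.49).

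Chemokine genes and Lcn2 were among the lower genes with many UMIs. Cxcl2 stood at 10609 CPM (10355 to 10868) in the members labelled WT and 3266 (3043 to 3501) in those labelled KO, a log2 ratio of -1.70, with 1 barcode holding 30.1% of its UMIs in KO. It was detected in 72.5% (66.6 to 77.8) of the members labelled WT and 41.9% (33.1 to 51.1) of those labelled KO, and in 23.1% and 16.6% of the deeper Cd3 barcodes. With every barcode thinned to 500 UMIs the shares were 56.6% and 34.7% of the members and 5.06% and 4.09% of the Cd3 barcodes. In the Retnlg-negative barcodes its log2 ratio was -0.69 and outside the gate -1.26. Cxcl3 stood at 780.0 and 181.2 CPM (log2 -2.05), and Ccl3 at 1679 and 626.0 (log2 -1.41), while their ratios in the Retnlg-negative barcodes were -0.18 and -0.33. All 3 ratios were thus negative on both sides of the gate and farther from 0 among the members, and the difference between the ratios was not tested. Lcn2, which encodes the iron-siderophore binding protein lipocalin 2, stood at 1714 CPM (1613 to 1820) in WT and 630.1 (534.2 to 738.3) in KO (log2 -1.43). Its UMIs were seen in 62.8% (56.6 to 68.7) and 43.5% (34.7 to 52.7) of the members, and in 2.64% and 0.856% of the Cd3 barcodes.

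Smaller counts lay behind the other lower genes. Fpr1, the formyl peptide receptor, had 132 UMIs in WT and 17 in KO (log2 -1.47). Prok2, a secreted prokineticin, had 89 and 4 (-2.53), the inducible nitric oxide synthase Nos2 48 and 3 (-1.96), Il1a 36 and 1 (-2.27), and the acute-phase gene Saa3 55 and 0 UMIs. Stfa1 of the stefin cluster had 97 and 10 UMIs (-1.70), and Lepr, the leptin receptor, 73 and 3 (-2.51), in only 6 members labelled WT. Pf4 (474 and 19 UMIs, log2 -3.13) and Selenop (57 and 5, log2 -1.73), which are expressed by macrophages as well, had ratios of -1.32 and -0.53 without the mixed barcodes. Stefin reads may again be split among near-identical copies.

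Genes higher in the members labelled KO included single genes of other myeloid cells, whereas the marker lists of these cells had no common direction. Of 5 macrophage genes at 50 CPM or more, 4 had negative ratios and 1 a positive one (median -0.63, or -0.10 without the mixed barcodes), with Apoe (-1.40) and Mrc1 (-1.39) past 2-fold lower and 0 past 2-fold higher. Neither was still past 2-fold without the mixed barcodes (-0.78 and -0.59). Both genes help define the mixed barcodes, so leaving these out cuts their levels by design and the changed ratios cannot be read further. All 3 dendritic cell genes at this level had negative ratios (median -0.15), and the 8 monocyte genes split into 4 positive and 4 negative (median 0.28), with 1 past 2-fold higher. Gpnmb, a glycoprotein gene of macrophages, had 18 UMIs in WT and 41 in KO (log2 2.20), the lipoprotein lipase gene Lpl 35 and 49 (1.68), Slamf7 8 and 19 (1.95), Slamf8 13 and 19 (1.51) and Ly9 9 and 14 (1.47), the last 3 being receptors of the SLAM family. As means of per-barcode CPM the ratios of Slamf7 (0.73) and Slamf8 (0.95) were no longer past 2-fold. Ccl2, a monocyte chemoattractant gene, stood at 624.0 and 1392 CPM (log2 1.15), Ly6c2 at 176.9 and 428.3 (1.23), and Irf8, a transcription factor of monocytes and dendritic cells, at 106.1 and 251.2 (1.17). In the Retnlg-negative barcodes the ratio of Ccl2 had the opposite sign (-0.47, 631.3 and 453.5 CPM), and those of Ly6c2 and Irf8 were 1.99 and 1.0. Outside the gate the ratios were 0.35 for Ccl2, 0.80 for Ly6c2 and -0.030 for Irf8. The share of mixed barcodes was 9.69% in WT and 12.1% in KO, and their part in these ratios was not tested beyond leaving them out, which gave 1.87 for Gpnmb, 1.06 for Ccl2, 1.09 for Ly6c2 and 1.15 for Irf8. The interferon-induced gene Gbp2 stood at 217.1 and 444.8 CPM (1.0), but its ratio was 0.57 as a mean of per-barcode CPM and 0.86 with TMM factors, no longer past 2-fold. Of 21 interferon-response genes at this level, 14 had positive and 7 negative ratios, a split near that of all 2796 genes (1680 positive and 1116 negative), with a median of 0.25 in the members, 0.33 in the Retnlg-negative barcodes and 0.68 outside the gate.

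Several lists had no gene past 2-fold, which at shares of 2% and 1.93% over all genes is not a result about lists of this size. Of 21 glycolysis and hypoxia genes 17 had negative ratios, beside 1116 of all 2796 genes, with a median of -0.21 beside 0.11. Of 18 genes of blood-type neutrophils 10 were positive and 8 negative, with a median of 0.10. Lyz2, the gene that carries the Cre insertion, stood at 2776 CPM in the members labelled WT and 1511 in those labelled KO (log2 -0.87), at 2726 and 1046 in the Retnlg-negative barcodes, and at 4479 and 2027 outside the gate. The Cre insertion disrupts that allele, and near-identical Lyz1 may share reads with it. The specific granule genes Camp, Ltf and Ngp had 0, 0 and 8 UMIs in the members labelled WT and 109, 35 and 122 in those labelled KO, but 1 barcode held 50.5%, 54.3% and 60.7% of these, so they were not counted.

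**Figure D4:**
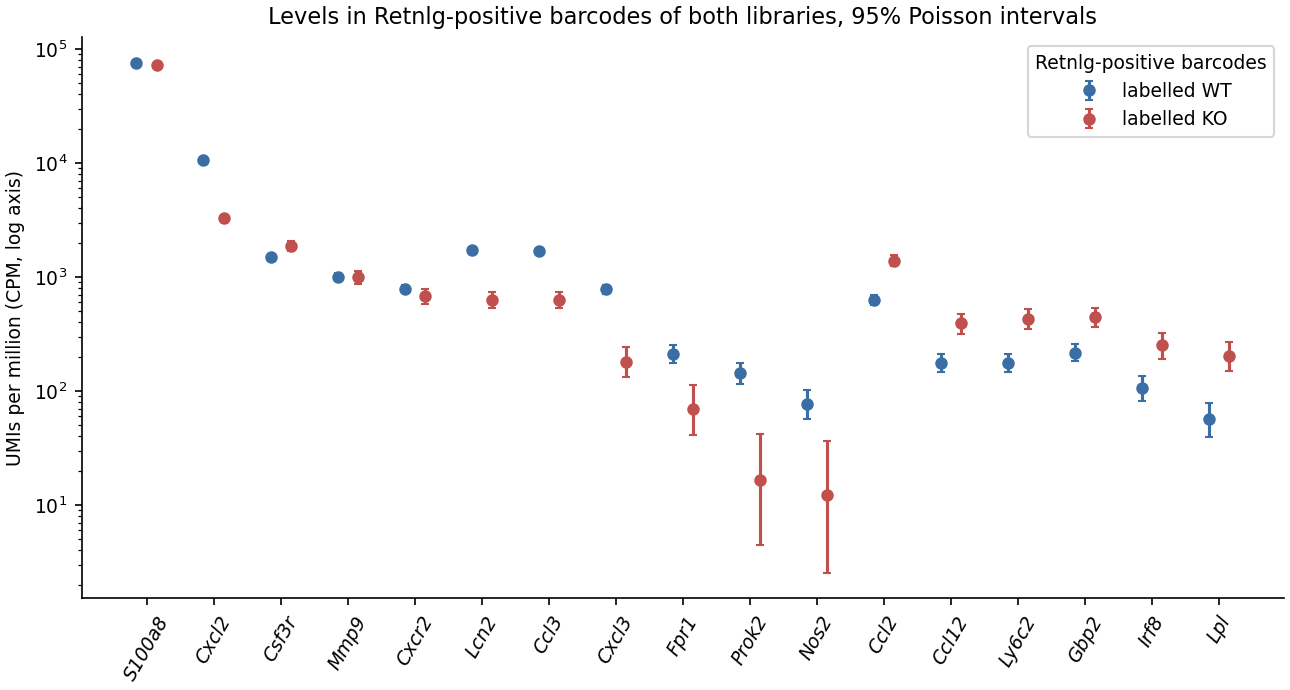
Points show the summed level of 17 genes in the members labelled WT (blue) and KO (red) in CPM (y axis, log scale), and bars show exact 95% Poisson intervals, which cover counting error only. S100a8, Mmp9 and Cxcr2 are close in the 2 libraries, Cxcl2, Lcn2, Ccl3, Cxcl3, Fpr1, Prok2 and Nos2 are lower in KO, and Ccl2, Ccl12, Ly6c2, Gbp2, Irf8 and Lpl are higher.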

How the data were processed

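The authors sorted live CD45+ cells, prepared 10x Genomics Chromium 3' libraries, aligned the reads to mm10 and, per the file headers, counted UMIs with Cell Ranger 4.0.0. The deposited matrix held raw whole-number UMI counts of 31053 genes with no normalisation, and a deposited table tied barcodes to libraries. The study's methods state that doublets were removed and name the limits of 200 genes and 10% mitochondrial reads, which were applied here again.

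Counts were read with scanpy 1.11.5 (Python 3.11.15) and summed per library and Retnlg state. The contrast between Retnlg states used edgeR 4.0.16 in R 4.3.3 (TMM, filterByExpr with a minimum count of 10, glmQLFit and glmQLFTest, library term, Benjamini-Hochberg adjustment), with DESeq2 1.42.0 as an alternative. The edgeR fit was also run on simulated counts with a fixed dispersion and no mixed barcodes, which cannot show how it behaves on these data. Log2 differences between the states within each library used TMM-scaled CPM with 10 added to each state. The rule genes stayed out of the test. Its p-values measure the spread of the contrast between 2 libraries, which share no replication of genotype. Between libraries, log2((CPM KO + 10)/(CPM WT + 10)) was computed for genes at 50 CPM or more, past 2-fold where no barcode held over 50% of the UMIs in the higher library. UMIs per 1000000 UMIs of the group (CPM) were computed here from the deposited counts. Intervals came from scipy 1.17.1. UMIs remove amplification copies, but intervals and limits of 0 counts cover counting error only.

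The members, gene lists and marker lists were chosen with earlier results of these data known. Named genes were the rule genes, Mettl3, Lyz2, list genes, the 15 highest and 15 lowest log2 fold changes past the threshold with the same sign in both libraries (without mitochondrial, ribosomal protein and haemoglobin genes), and the 10 highest and 10 lowest ratios between libraries. Other rankings and genes named outside this rule were picked after their values were seen. Scrublet's automatic threshold marked 1 barcode in each library and was taken to have failed, so barcodes were left out by score (256 and 532, among them 9 and 12 members) only as an alternative. Gene coordinates came from GENCODE M21 (GRCm38, 30934 of 31053 identifiers), and promoters from RefSeq (GRCm38.p6). Alternatives were other limits of the rule, thinning to 500 UMIs, doublets or mixed barcodes left out, other scaling, filters, pseudocounts, tests and models, and each library alone.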

Additional observations from a re-analysis of the deposited data

Results flagged for a closer look

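Barcodes with high S100a8 and S100a9 and a Retnlg UMI that carried C1q above the limit or a Cd3 UMI lay outside the comparisons above. They numbered 146 in the library labelled WT and 68 in the library labelled KO, with medians of 2215 and 2217 UMIs, above the medians of the members (1562 and 1167).

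For 3 genes past 2-fold between the libraries, the ratio in the members and the ratio in the Retnlg-negative barcodes had opposite signs and both passed a limit of 1 on the log2 scale that was chosen after the data had been seen. Apoe, an apolipoprotein gene of macrophages and 1 of the genes that define the mixed barcodes, had a log2 ratio KO over WT of -1.40 in the members and 1.32 in the Retnlg-negative barcodes. Without the mixed barcodes its ratio in the members was -0.78 and it was lower in KO among the Retnlg-negative barcodes too (439.1 CPM in WT and 169.6 in KO), so the opposite signs were gone. Ccl12 had 1.10 and -1.33, and kept both signs without the mixed barcodes (40.6 CPM in WT and 309.8 in KO in the members, 72.0 and 18.8 in the Retnlg-negative barcodes). The ratio of Ccl12 in the Retnlg-negative barcodes rests on few UMIs, and with TMM factors its ratio in the members was 0.96, no longer past 2-fold. Saa3 had -3.30 and 2.69, from 55 against 0 UMIs and 10 against 33 UMIs in WT against KO, and with 0 UMIs its ratio in the members depends on the pseudocount of 10 CPM. Without the mixed barcodes Saa3 was lower in KO on both sides (68.6 CPM and 0 UMIs in the members, 72.0 and 18.8 CPM in the Retnlg-negative barcodes). The difference between the ratios was not tested for any of the 3.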

How the results depend on the processing

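The log2 ratio of the members' share kept its value within counting error over 9 alternatives (-1.65 to -1.48), as did that of their part of the gate (-0.03 to 0.15). The counts of genes did not. Genes higher and lower in the members (40 and 80) became 98 and 186 at an S100a8 plus S100a9 limit of 100, 42 and 41 at 500, 10 and 9 with no C1q UMI, 62 and 95 without doublets, 1 and 0 after thinning to 500 UMIs, 63 and 64 without mixed barcodes, 0 and 4 with DESeq2, 0 and 3 with RLE scaling, and 1 and 6 with no library term. After thinning, Ccl7 (-0.90), Cd74 (-0.26), H2-Ab1 (-0.12) and Hspa1a (-0.43) changed sign, as did Cd74 (-0.086) without mixed barcodes; the cause was not tested.

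Genes past 2-fold higher and lower in KO (56 and 54) became 88 and 56 with 2 Retnlg UMIs, 137 and 79 at an S100a8 plus S100a9 limit of 500, 167 and 95 with no C1q UMI, 78 and 104 without doublets, 397 and 354 after thinning, 174 and 90 without mixed barcodes, 94 and 86 with a pseudocount of 1 CPM, 179 and 141 from 20 CPM, 18 and 24 from 100 CPM, 146 and 110 as means over barcodes, and 29 and 95 with TMM. Fewer UMIs enter the sums when barcodes are thinned or left out. None of the 31 named genes changed sign with TMM, means over barcodes or without mixed barcodes. No paired analysis was possible because each genotype had 1 library; leaving 1 out leaves no comparison between libraries. At a median of 1167 to 1562 UMIs a member, absence of a gene in a barcode cannot be told apart from a missed molecule.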
